A study of Mus musculus with 9 samples.

Results

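The 8 serpin genes Serpinb9, Serpinb9b, Serpinb6a, Serpinb6b, Serpinb1a, Serpina3f, Serpina3g and Serpine2 were followed through RNA sequencing libraries of mouse natural killer (NK) cells, the innate lymphocytes that kill with granules of proteases. They were taken by symbol, as inhibitors known from killer cells or their neighbours, and with earlier results of these data known. All 8 had a row among the 27179 genes counted, which held 65 serpin-named genes in all. The libraries came from splenic NK cells of C57BL/6 mice. There were 3 libraries of Id2-null cells and 3 of wild-type (WT) cells, which the labels describe as 7-day cultures with interleukin-15 (IL-15), and 1 library each of the wild-type populations named Immature, M1 and M2, which were sorted from spleen and not cultured. The labels refer to cultured and sorted samples by number without saying which sample has which number, and the listed order was followed here. ID2 is a helix-loop-helix protein that binds E proteins and keeps them off DNA. How Id2 was deleted, the markers used for sorting and whether replicates were separate mice are, in the sources used here, not given, and the p-values below reflect differences among these libraries, some of which could be technical.

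Serpins are protease inhibitors that work by suicide. The target protease cuts an exposed loop of the serpin, stays bound to it and is distorted, so that both molecules are spent. Serpins of clade B stay inside the cell, where they neutralise granule proteases that leak into the cytosol, while most serpins of the other clades are secreted. In killer lymphocytes such inhibitors are known for protecting the cell from its own granzymes, the serine proteases of the cytotoxic granule.

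Total counts ran from 4128414 to 4831831 per library, so that a count of 0 allows a level of at most 0.573 to 0.775 CPM (counts per 1000000, TMM-scaled across the 9 libraries), taken at 3 counts and for counting error alone. Id2 itself stood at 12.2, 23.7 and 8.92 CPM in the Id2-null libraries, against 405, 398 and 372 CPM in WT. All 12 genes of NK identity had counts in every library. Between the genotypes 0 of the 12 were called (edgeR), against 1.52% of all genes tested called lower and 1.84% higher. At an unadjusted p under 0.05 (edgeR), 3 were lower in Id2-null cells (Fcer1g, Prf1 and Tbx21) and 0 higher. Of all 11022 genes tested, 1625 had such a p in either direction. DESeq2 called 1 lower (Tbx21) and limma voom 0, against 580 and 323 of all genes in either direction. With the block described below 2 were called lower (Prf1 and Tbx21), against 2.95% of all genes. Of the 12 myeloid and neutrophil genes, 9 had at most 3 counts in each culture, Lyz2, S100a8, S100a9, Csf1r and Mpo among them. Cd68 had 21 to 99 counts in the cultures and Itgax, which NK cells also express, 1641 to 2969. The 12 genes summed to 435 to 509 CPM in Id2-null and 361 to 589 CPM in WT libraries, mostly from Itgax. In the sorted libraries they summed to 1181 CPM in Immature, 1380 in M1 and 1859 in M2. There Itgax had 3769, 4685 and 3342 counts and Lyz2 223, 249 and 923. The 6 mast cell and basophil genes summed to 118, 224 and 542 CPM in the same libraries. Between the cultures, the mast cell and basophil genes summed to 2.23 to 8.74 CPM in Id2-null, against 11.8 to 30 CPM in WT libraries, the 8 stromal and endothelial genes to 37.9 to 59.6 CPM in Id2-null, against 136 to 165 CPM in WT libraries, and the 8 T cell genes, some of which NK cells also transcribe, to 182 to 328 CPM in Id2-null, against 56.7 to 218 CPM in WT libraries. The mast cell and basophil sum in the cultures came from Mcpt8 and Cpa3. Mcpt8 had 33, 34 and 11 counts in Id2-null libraries, against 78, 133 and 54 in WT libraries. Cpa3 had 7, 5 and 0 counts in Id2-null libraries, against 11, 12 and 8 in WT libraries. Fcer1a, Prss34, Mcpt4 and Ms4a2 had no count in any culture. The stromal and endothelial sum was nearly all Pecam1, with Cdh5 and Col3a1 at 0. The part of these genes' cells in the results was not tested. Xist, the X-inactivation RNA of female cells, ran from 652 to 869 CPM in Id2-null libraries and from 0.207 to 1.15 CPM in WT libraries. Y-linked transcripts divided them the other way, and Xist ran from 92.2 to 129 CPM in the sorted libraries, which held Y-linked transcripts too. Sex and genotype therefore cannot be told apart in any comparison between the cultures below. Replicate 3 of each genotype lay apart from replicates 1 and 2. Same-numbered libraries of both genotypes deviated together, though replicates 1 and 2 were matched less clearly than replicate 3. Results with the replicate number as a block are therefore given where they change a call.

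The genes lie in 2 clusters and at 1 further place (GRCm38). Serpinb1a (positions 32842092 to 32853206), Serpinb6b (32956811 to 32979067), Serpinb9 (32997061 to 33017955), Serpinb9b (33027414 to 33040588) and Serpinb6a (33917918 to 34002794) belong to a row of 16 Serpinb genes on chromosome 13. Serpina3f (104214544 to 104221129) and Serpina3g (104236147 to 104241939) are neighbours on chromosome 12, in a row of 25 Serpina genes, and Serpine2 (79794317 to 79858665) is on chromosome 1. Most relatives in these rows had few or no counts. On chromosome 13, 7 of 16 genes reached 10 counts in some library and 6 had no count in any, and on chromosome 12, 3 of 25 reached 10 counts and 16 had none. Of the 8 genes of the Serpinb9 group, 2 (Serpinb9 and Serpinb9b) reached 10 counts, and Serpinb9c, Serpinb9d, Serpinb9f, Serpinb9g and Serpinb9h had none.

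The starts of the 2 neighbouring pairs are shown because their members are copies of each other that had different levels. RefSeq (GRCm38.p6) has a promoter sequence, from 250 bases before to 50 bases after a start, for 7 of the 8 genes. Capitals mark the motif CANNTG, the E-box to which E proteins bind, and the motif TTCNNNGAA, the form of site bound by STAT factors, which IL-15 activates. The 4 sequences run 5′ to 3′ on the plus strand, at chr13:33004291-33004590, chr13:33027164-33027463, chr12:104214294-104214593 and chr12:104235897-104236196 in that order.
Serpinb9: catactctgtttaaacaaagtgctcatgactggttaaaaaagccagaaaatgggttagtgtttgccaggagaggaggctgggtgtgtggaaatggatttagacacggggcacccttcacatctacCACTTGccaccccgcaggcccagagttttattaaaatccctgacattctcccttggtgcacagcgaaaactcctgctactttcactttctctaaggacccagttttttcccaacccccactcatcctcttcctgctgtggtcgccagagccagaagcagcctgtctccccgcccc
Serpinb9b: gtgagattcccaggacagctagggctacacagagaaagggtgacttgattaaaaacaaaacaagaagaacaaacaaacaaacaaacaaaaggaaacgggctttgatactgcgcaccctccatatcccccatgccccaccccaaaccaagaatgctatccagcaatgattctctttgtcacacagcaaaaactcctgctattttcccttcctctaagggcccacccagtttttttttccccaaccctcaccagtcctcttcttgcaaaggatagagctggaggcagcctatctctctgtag
Serpina3f: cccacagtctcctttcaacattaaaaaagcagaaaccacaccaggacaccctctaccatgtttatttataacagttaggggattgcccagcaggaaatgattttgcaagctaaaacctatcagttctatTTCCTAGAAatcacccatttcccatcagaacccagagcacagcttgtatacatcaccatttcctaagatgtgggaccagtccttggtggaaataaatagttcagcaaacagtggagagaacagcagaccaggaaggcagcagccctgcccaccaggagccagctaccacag
Serpina3g: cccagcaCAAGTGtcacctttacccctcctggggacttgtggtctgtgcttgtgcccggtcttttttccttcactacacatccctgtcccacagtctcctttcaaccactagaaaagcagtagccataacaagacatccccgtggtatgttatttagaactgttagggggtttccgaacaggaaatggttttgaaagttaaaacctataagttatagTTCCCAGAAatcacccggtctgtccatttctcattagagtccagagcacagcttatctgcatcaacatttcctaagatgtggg

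A local alignment matched the Serpinb9b and Serpinb9 sequences over 216 columns with 70.4% identical bases, and those of Serpina3f and Serpina3g over 214 columns with 79.0%. CANNTG, searched on both strands, was present in 4 of the 9 promoter windows of the 7 genes (1 each of Serpinb9, Serpinb6a, Serpina3g and Serpine2), against 72.3% of all 32851 promoters in the table. Its match in Serpinb9 begins 125 bases before the start, and the Serpinb9b window holds none. The Serpinb9 window, the 1 listed for that gene, lies inside the gene span given above and not at its upstream end. TTCNNNGAA was present in 4 of the 9 windows, against 8.3% of all promoters, and 2 of the 4 were overlapping windows of Serpina3f that hold the same match. In the Serpina3f window shown it begins at base -121 and in Serpina3g at base -33, and the Serpinb6a window at its upstream start holds 2 matches. These are matches of letters in a window of 300 bases and were chosen for search after the levels were known.

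Serpinb9 and Serpinb9b fell in Id2-null cells. Serpinb9 encodes the clade B serpin that inhibits granzyme B, and Serpinb9b encodes a mouse relative known as an inhibitor of granzyme M. Serpinb9 had 204, 207 and 189 CPM in the Id2-null libraries, against 569, 555 and 406 CPM in WT libraries. All Id2-null libraries were below all WT libraries, and the Id2-null values lay within a narrow band while WT replicate 3 was the lowest of its group. The mean was 199.9 ± 9.51 CPM in Id2-null cells, against 509.8 ± 90.2 CPM in WT cells (SD, n = 3 each). The log2 fold change was -1.34 ± 0.15 (SE), with an adjusted p of 0.00423 in the edgeR quasi-likelihood test.

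Serpinb9b was nearly absent without Id2. It had 4, 4 and 1 counts in the Id2-null libraries, against 148, 133 and 112 counts in WT libraries. The groups did not overlap, and every Id2-null library was close to the limit of detection. The level was 0.638 ± 0.378 CPM in Id2-null cells, against 26.5 ± 4.68 CPM in WT cells (SD, n = 3 each). The log2 fold change reached -5.33, with an SE of 0.37 (adjusted p = 0.000534, edgeR). Summed over libraries, 9 counts in Id2-null against 393 in WT cells gave a ratio of 0.0239 with a counting interval of 0.0108 to 0.0458 (95%, exact). Within a library, Serpinb9b per Serpinb9 (counts per length) was 0.00755, 0.00713 and 0.00189 in Id2-null, against 0.0947, 0.0872 and 0.0928 in WT libraries. Every Id2-null ratio was below every WT ratio. An exact two-sided permutation test of this ratio gave p = 0.1, the smallest that 3 against 3 libraries allow. Of 5 such ratios and sums tested, each had an exact permutation p = 0.1, also 0.1 after adjustment over the 5, and the ratios were chosen after their values were seen. Serpinb9b transcripts hold 0.378% of the 50-base words of Serpinb9 transcripts.

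**Figure D1:**
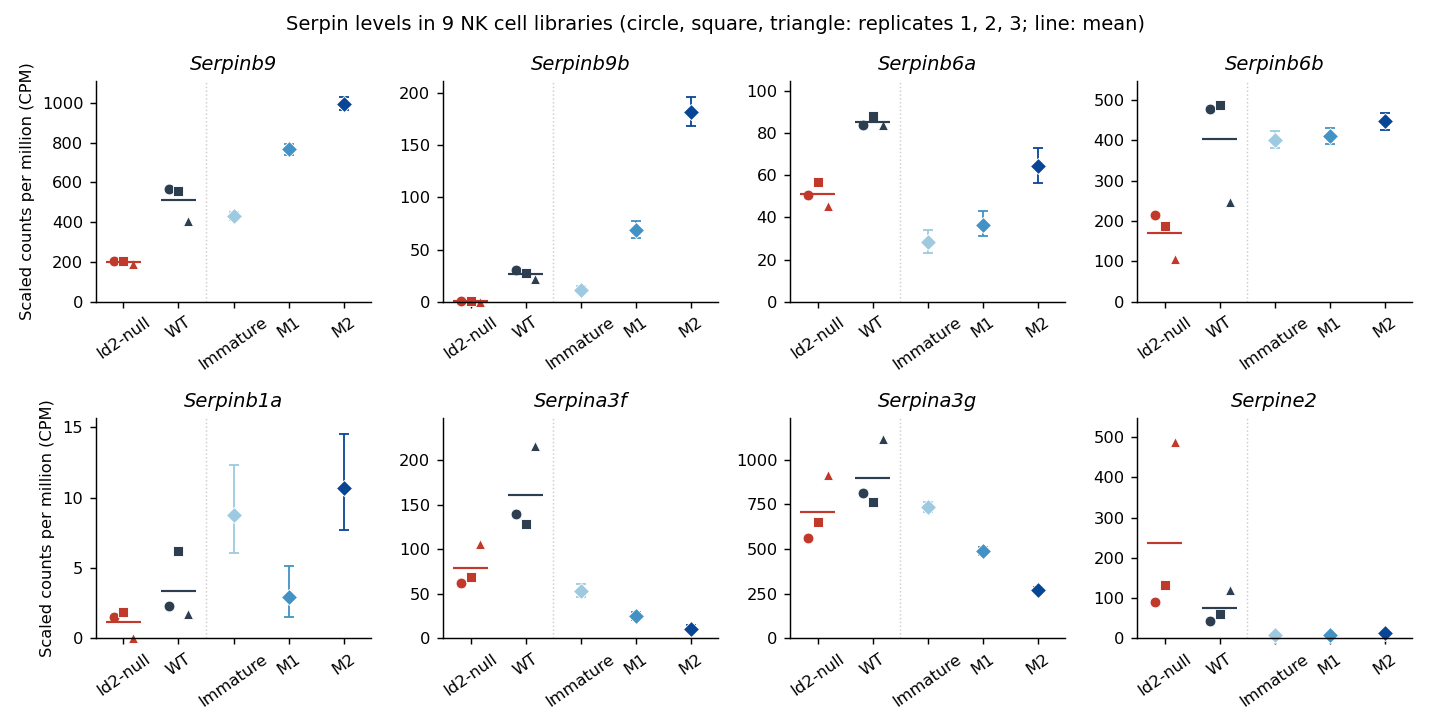
Level of each serpin in each library in TMM-scaled CPM, on a linear axis from 0, with Id2-null and WT cultures left of the dotted line and the sorted Immature, M1 and M2 libraries right of it. Lines are means of 3 libraries and bars on the sorted libraries are exact Poisson 95% intervals. Serpinb9b lies under 1 CPM in every Id2-null library and at 182 CPM in M2, while Serpina3f and Serpina3g have their highest mean in WT cultures and their lowest level in M2.

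Serpinb6a and Serpinb6b are the clade B relatives of human SERPINB6. Serpinb6a is known as an inhibitor of cathepsin G and Serpinb6b as the mouse inhibitor of granzyme A. Serpinb6a had 50.7, 57.0 and 45.6 CPM in Id2-null libraries, against 84.1, 88.3 and 84.1 CPM in WT libraries. The WT libraries were nearly equal and no Id2-null library reached them. It fell to 51.1 ± 5.71 CPM in Id2-null cells, against 85.5 ± 2.41 CPM in WT cells (SD, n = 3 each, log2 fold change -0.74, SE 0.12, adjusted p = 0.0171, edgeR). The call was lost without Id2-null replicate 1 or without WT replicate 1, 2 or 3, at adjusted p = 0.0859, 0.0825, 0.0845 and 0.0577 (edgeR), with log2 fold changes of -0.71 to -0.75. Serpinb6a overlaps Nqo2, Ripk1 and 1110046J04Rik, and whether reads were counted by strand is unknown, so its level is uncertain. Nqo2 averaged 26.6 CPM in Id2-null cells, against 32.5 CPM in WT cells, without overlap between libraries (adjusted p = 0.387, edgeR). Ripk1 averaged 94.4 CPM in Id2-null cells, against 104 CPM in WT cells (adjusted p = 0.678, edgeR).

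Serpinb6b had 216, 187 and 106 CPM in Id2-null libraries, against 477, 486 and 248 CPM in WT libraries. Replicate 3 was the lowest in both genotypes, and the groups did not overlap although WT replicate 3 came close to Id2-null replicate 1. The log2 fold change was -1.24 (SE 0.33) and did not pass without a block (adjusted p = 0.105, edgeR). Between same-numbered libraries it was -1.14, -1.38 and -1.22, and with the replicate number as a block it passed (SE 0.10, adjusted p = 0.00211, edgeR). DESeq2 called it without a block (adjusted p = 0.00149).

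Serpinb1a encodes an inhibitor of neutrophil elastase, cathepsin G and proteinase 3 that is abundant in neutrophils. It had 7, 9 and 0 counts in Id2-null libraries, against 11, 30 and 9 counts in WT libraries, and the groups overlapped. It did not pass the expression filter with all 6 libraries. Without the filter the log2 fold change was -1.55 (adjusted p = 0.514, edgeR), and without replicate 3 of both genotypes it was -1.29 (unadjusted p = 0.0225, adjusted p = 0.154, edgeR).

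Serpina3g, also known as Spi2A, is an intracellular clade A serpin that inhibits lysosomal cathepsins, and Serpina3f is its neighbour and close copy. Serpina3f had 61.8, 68.9 and 106 CPM in Id2-null libraries, against 139, 128 and 216 CPM in WT libraries. Replicate 3 was the highest in both genotypes and the groups did not overlap. The log2 fold change of -1.02 (SE 0.27) did not pass without a block (adjusted p = 0.104, edgeR), and passed with the replicate number as a block (SE 0.10, adjusted p = 0.00336, edgeR), with DESeq2 (adjusted p = 0.00472) and without Id2-null replicate 3 (adjusted p = 0.0113, edgeR). The same-numbered libraries differed by -1.17, -0.89 and -1.02 on the log2 scale.

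Serpina3g had 563, 651 and 915 CPM in Id2-null libraries, against 816, 765 and 1114 CPM in WT libraries. Replicate 3 was again the highest in both genotypes, and here Id2-null replicate 3 exceeded WT replicates 1 and 2. The log2 fold change of -0.33 (SE 0.22) passed neither without a block (adjusted p = 0.572, edgeR) nor with it (adjusted p = 0.139). Within each library, Serpina3f per Serpina3g (counts per length) was 0.0935, 0.0902 and 0.0990 in Id2-null, against 0.145, 0.142 and 0.165 in WT libraries. This ratio was lower in each Id2-null library than in any WT library and varied little within a genotype (exact two-sided permutation p = 0.1, the smallest possible). Serpina3g shares 15.5% and Serpina3f 10.6% of their 50-base words with other serpin transcripts, so the division of reads within this group is uncertain.

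Serpine2, which encodes the secreted thrombin and urokinase inhibitor protease nexin 1, was the member with a positive fold change. It had 90.0, 133 and 487 CPM in Id2-null libraries, against 44.2, 60.6 and 121 CPM in WT libraries. Replicate 3 was the highest in both genotypes, and WT replicate 3 exceeded Id2-null replicate 1, so the groups overlapped. The mean was 237 ± 218 CPM in Id2-null cells, against 75.3 ± 40.5 CPM in WT cells (SD, n = 3 each), and the log2 fold change of 1.66 (SE 0.65) did not pass without a block (adjusted p = 0.295, edgeR). With the block it passed at a log2 fold change of 1.41 (SE 0.20, and adjusted p = 0.0126, edgeR), and same-numbered libraries differed by 1.02, 1.14 and 2.01. Without replicate 3 of both genotypes the log2 fold change was 1.09 (adjusted p = 0.000564, edgeR), and without Id2-null replicate 3 alone it was 0.56 (adjusted p = 0.499).

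**Figure D2:**
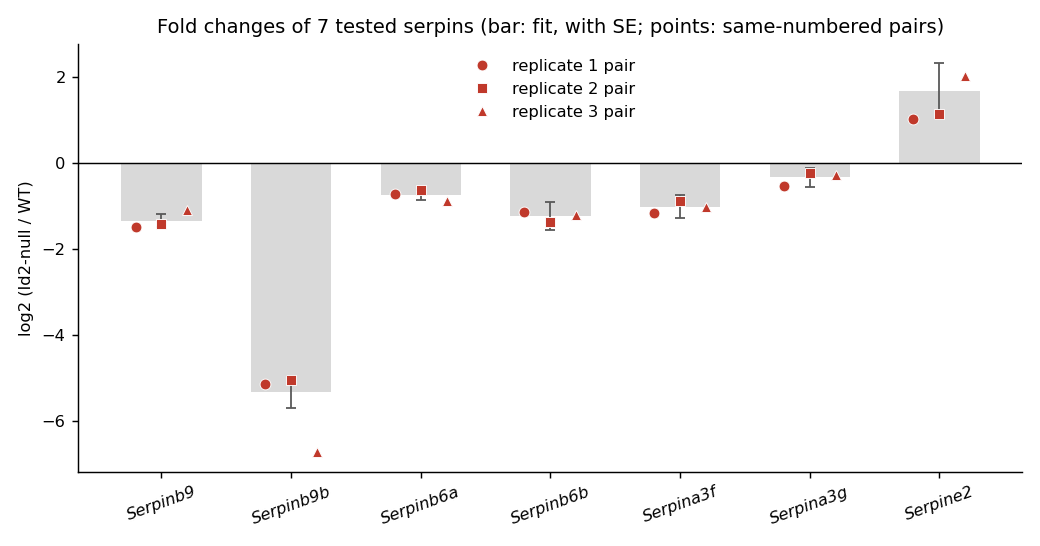
The log2 ratio of Id2-null to WT for the 7 tested serpins. Grey bars are fitted fold changes with their SE, and the points are ratios of scaled counts between libraries with the same replicate number. All 3 points lie below 0 for Serpinb9, Serpinb9b, Serpinb6a, Serpinb6b, Serpina3f and Serpina3g and above 0 for Serpine2.

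Of the 7 serpins tested, 3 were called lower and 0 higher in Id2-null cells, against 1.52% of all 11022 genes tested called lower and 1.84% called higher (edgeR). At an unadjusted p under 0.05 (edgeR), 5 were lower and 1 higher, against 1625 of the 11022 genes in either direction. Limma voom called 3 lower and 0 higher, against 323 genes in either direction. DESeq2 called 5 lower and 0 higher, against 580 genes in either direction. With the replicate block 5 were called lower and 1 higher, against 2.95% and 3.37% of all genes. In 5 of the 7 all Id2-null libraries lay below all WT libraries, as in 12.8% of all genes tested. The median log2 fold change was -1.02 over the 7 and 0.01 over all genes tested. The members were chosen with earlier results of these data known. An excess over the shares of all genes, here and below, can follow from that choice, and this was not tested. Of the 57 other serpin genes, 25 had any count and 2 passed the filter. Serpini1, which encodes neuroserpin, had 6.76 ± 1.98 CPM in Id2-null cells, against 2.82 ± 0.243 CPM in WT cells (SD, n = 3 each, adjusted p = 0.0851, edgeR), and Serpina3c had 2.7 ± 2.46 CPM in Id2-null cells, against 4.83 ± 2.28 CPM in WT cells (adjusted p = 0.724). Neither was called by edgeR, DESeq2 or limma voom, so 0 of the 2 were called, and Serpini1 had an unadjusted p under 0.05.

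The proteases that these inhibitors meet were described from a list of 30 genes, of which 19 passed the filter. In Id2-null cells 7 were called lower and 2 higher, against 1.52% and 1.84% of all genes tested (edgeR). The median log2 fold change was -0.30, and the list was chosen with earlier results of these data known. All 7 that fell were granzymes, Gzma, Gzmb, Gzmc, Gzmd, Gzme, Gzmf and Gzmg. Gzmb, the target of Serpinb9, fell to 2270 ± 176 CPM in Id2-null cells, against 8843 ± 478 CPM in WT cells (SD, n = 3 each, log2 fold change -1.96, adjusted p = 0.000534, edgeR). Gzma, the target of Serpinb6b, had 502, 728 and 155 CPM in Id2-null libraries, against 4893, 3189 and 2947 CPM in WT libraries (adjusted p = 0.0226, edgeR). The call of Gzma was lost without Id2-null replicate 1 (adjusted p = 0.111, edgeR), WT replicate 1 (0.104) or WT replicate 2 (0.0731), and with robust estimation of the spread (0.083). Gzmm, the target of Serpinb9b, moved the other way from its inhibitor and rose to 60.0 ± 18.3 CPM in Id2-null cells, against 7.90 ± 1.82 CPM in WT cells (SD, n = 3 each, adjusted p = 0.00178, edgeR). The other gene that rose was Ctss, which encodes cathepsin S, at 81.9 ± 15.5 CPM in Id2-null cells, against 41.8 ± 9.73 CPM in WT cells (adjusted p = 0.0473, edgeR). Limma voom did not call Ctss (adjusted p = 0.0504), and edgeR lost it (adjusted p 0.0817 to 0.214) when replicate 1 or 2 of either genotype was left out and with library sizes alone (0.0693). Ctsc, which encodes the cathepsin that activates progranzymes, averaged 230.1 CPM in Id2-null cells, against 168 CPM in WT cells (adjusted p = 0.133, edgeR, and 0.0439 with the block). With the block 4 of the proteases were called higher, Gzmk and Ctsc being added, against 3.37% of all genes. Casp1 and Casp8 did not pass, with means of 71.2 and 141 CPM in Id2-null cells, against 55.4 and 168 CPM in WT cells. Nor did Prf1, which encodes perforin, at 497 ± 195 CPM in Id2-null cells, against 1440 ± 749 CPM in WT cells (adjusted p = 0.162, edgeR, and 0.00844 with the block). Granzymes of chromosome 14 are close copies of each other, so the division of their reads is uncertain.

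Counts of granzyme B were also set against those of its inhibitor. Gzmb per Serpinb9 (counts per length) was 24.7, 26.1 and 31.1 in Id2-null libraries, against 37.8, 39.9 and 49.1 in WT libraries. The groups did not overlap, at means of 27.3 ± 3.34 in Id2-null and 42.3 ± 5.97 in WT cells (SD, n = 3 each, exact two-sided permutation p = 0.1, the smallest possible). In the sorted libraries the ratio was 0.858 in Immature, 2.73 in M1 and 5.57 in M2, below every culture. Gzma per Serpinb6b was 4.91, 8.24 and 3.08 in Id2-null libraries, against 21.7, 13.9 and 25.2 in WT libraries, and 10.3 in Immature, 40.6 in M1 and 80.2 in M2. These ratios do not depend on the scaling between libraries, and they compare transcripts, not proteins.

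**Figure D3:**
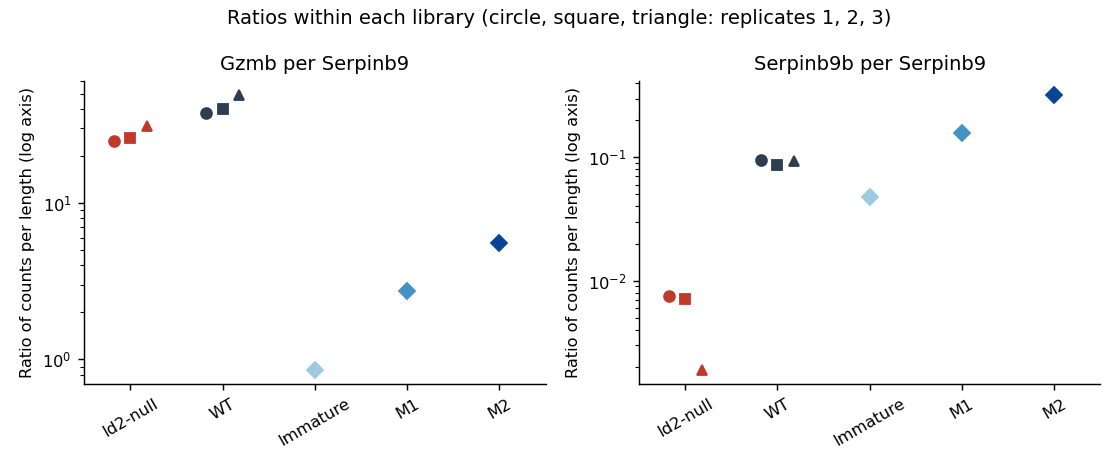
Ratio of counts per length within each library, on a log axis, for Gzmb per Serpinb9 (left) and Serpinb9b per Serpinb9 (right). Each point is 1 library. Gzmb per Serpinb9 is highest in WT cultures (37.8 to 49.1) and lowest in Immature cells (0.858), and Serpinb9b per Serpinb9 is lowest in Id2-null libraries (0.00189 to 0.00755) and highest in M2 (0.322).

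Of 24 protease inhibitor genes outside the serpin family, among them cystatins and Timp genes, 12 passed the filter and 0 were called by edgeR, with a median log2 fold change of -0.07. An unadjusted p under 0.05 (edgeR) was found for 1625 of all 11022 genes tested and for 1 of these inhibitors. This was Timp2, an inhibitor of metalloproteases, with 2.60 ± 0.696 CPM in Id2-null cells, against 8.14 ± 3.30 CPM in WT cells (SD, n = 3 each, adjusted p = 0.0898, edgeR). It passed with the block (0.0216) and DESeq2 called it, while limma voom called none. Cst7, which encodes the granule cystatin F, averaged 167 CPM in Id2-null cells, against 215 CPM in WT cells (adjusted p = 0.523, edgeR). Among the receptors for proteases that Serpine2 and its relatives restrain, F2rl1, which encodes the protease-activated receptor PAR2, rose to 18.5 ± 1.36 CPM in Id2-null cells, against 5.93 ± 1.77 CPM in WT cells (SD, n = 3 each, adjusted p = 0.0148, edgeR). F2rl2, which encodes the thrombin receptor PAR3, fell to 43.8 ± 11.8 CPM in Id2-null cells, against 127 ± 34.0 CPM in WT cells (adjusted p = 0.0186, edgeR), and F2r, which encodes the thrombin receptor PAR1, averaged 440.1 CPM in Id2-null cells, against 457 CPM in WT cells (adjusted p = 0.927). Of the 9 receptor genes listed, 5 passed the filter. The call of F2rl1 was lost (adjusted p 0.0507 to 0.0679, edgeR) when replicate 1 or 2 of either genotype was left out, and that of F2rl2 (0.0747 to 0.095) when either of the first 2 WT replicates or Id2-null replicate 2 was.

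Among the sorted populations Serpinb9, Serpinb9b and Serpinb6a were highest in M2, and Serpina3f and Serpina3g were lowest there. There was 1 library per population and no test, and intervals cover counting error only. Serpinb9 had 431, 766 and 995 CPM in Immature, M1 and M2, and Serpinb9b had 11.6, 69.3 and 182 CPM. M2 exceeded Immature by 2.31-fold for Serpinb9 (95% counting interval 2.18 to 2.45) and by 15.7-fold for Serpinb9b (11.6 to 21.7). The Id2-null cultures had less of both than any sorted population. Serpinb6a stood at 28.2, 36.6 and 64.3 CPM, with M2 over Immature at 2.28-fold (1.82 to 2.89). Serpinb6b was nearly level at 401, 410.3 and 447 CPM. Serpina3g had 736, 489 and 273 CPM in Immature, M1 and M2, and Serpina3f had 53.2, 24.9 and 11 CPM, so that M2 over Immature was 0.371 (0.346 to 0.399) for Serpina3g and 0.206 (0.145 to 0.288) for Serpina3f.

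Serpine2 was low in all 3 sorted libraries, at 9.05, 9.52 and 13.5 CPM in Immature, M1 and M2, with counts of 35, 39 and 53 and overlapping intervals. Serpinb1a had 34 counts in Immature, 12 in M1 and 42 in M2. Neutrophil transcripts were in these libraries too and were highest in M2, with S100a9 at 157, 223 and 971 counts and Mpo at 24, 46 and 155 counts in Immature, M1 and M2, and their part in the Serpinb1a level was not tested. Serpinb9, Serpinb9b and Serpinb6a were also highest in M2, as were the summed markers of myeloid cells and basophils. The 8 B cell genes summed to 23.8, 28.8 and 91.6 CPM in Immature, M1 and M2. The 8 T cell genes summed to 574, 95 and 158 CPM and were highest in Immature, as were Serpina3f and Serpina3g. The part of all those cells was not tested. In bulk RNA, fewer cells with a transcript and less of it per cell cannot be told apart.

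In M2 against Immature, 3 of the 8 serpins were over 2-fold higher (Serpinb9, Serpinb9b and Serpinb6a), against 8.01% of all genes with 10 counts in either library, and 2 were over 2-fold lower (Serpina3f and Serpina3g), against 6.7%. In M1 against Immature, 1 serpin (Serpinb9b) was over 2-fold higher in M1 (2.74% of all genes) and Serpina3f and Serpinb1a were over 2-fold lower (5.47%). In M2 against M1, Serpinb9b and Serpinb1a were over 2-fold higher in M2 (6.09%) and Serpina3f was over 2-fold lower (2.24%). Of the 5 serpins called lower in Id2-null cultures with the block, Serpinb9, Serpinb9b and Serpinb6a were higher in M2 than in Immature, Serpinb6b was nearly level at 1.11-fold and Serpina3f was lower.

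**Figure D4:**
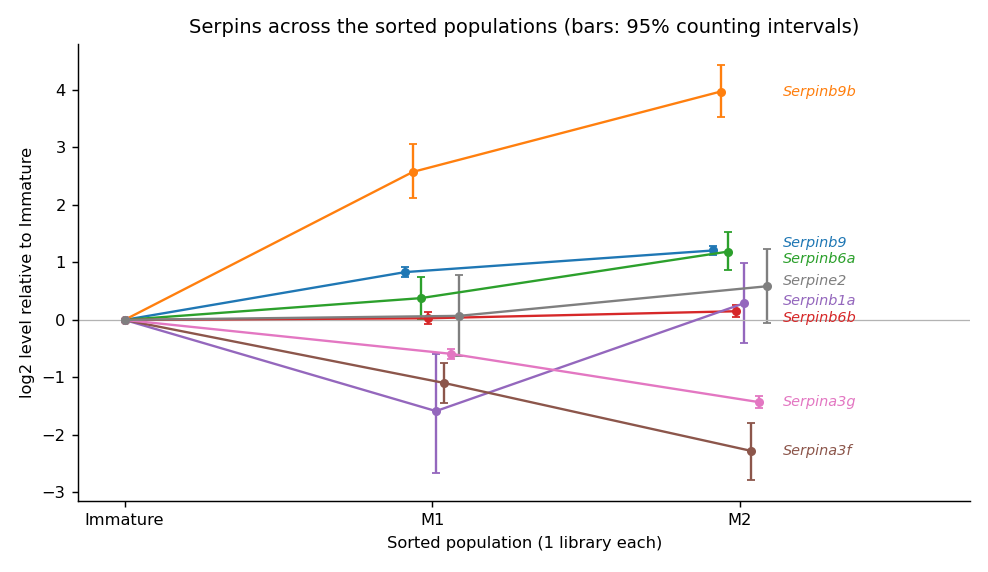
Level of each serpin in M1 and M2 relative to the Immature library, on a log2 axis, with 1 library per population and exact 95% counting intervals. Serpinb9b climbs to 3.97 and Serpinb9 and Serpinb6a to 1.21 and 1.19 in M2, while Serpina3g and Serpina3f end at -1.43 and -2.28.

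Set beside the sorted cells, WT cultures had more Serpine2 and Serpina3f. Serpine2 ran from 44.2 to 121 CPM in WT cultures and from 9.05 to 13.5 CPM in the sorted libraries, a 7.04-fold ratio of means, and Serpina3f ran from 128 to 216 CPM in WT cultures and from 11 to 53.2 CPM in the sorted libraries, a 5.41-fold ratio. Both exceeded 2-fold without overlap, as did 16.2% of all genes, and 0 of the 8 were over 2-fold lower in culture without overlap, against 17% of all genes. Serpina3g (765 to 1114 CPM in WT cultures, 273 to 736 CPM in sorted libraries) and Serpinb6a (84.1 to 88.3 CPM in WT cultures, 28.2 to 64.3 CPM in sorted libraries) were also higher in WT cultures without overlap, by 1.80-fold and 1.99-fold. Serpinb9, Serpinb9b, Serpinb6b and Serpinb1a overlapped between the 2 sets. Culture, sorting, sex and other cells differ together here, so this is a description without a test.

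Per gene length, Serpina3g gave the largest share of the 8 serpins' transcripts in every culture, and Serpinb9 in M2. The 8 genes summed to 564, 622 and 890.0 CPM per kilobase in Id2-null libraries, against 986, 966 and 1034 CPM per kilobase in WT libraries. Every Id2-null sum was below every WT sum, at means of 692 ± 174 in Id2-null and 996 ± 34.9 in WT cells (SD, n = 3 each, exact two-sided permutation p = 0.1, the smallest possible). Serpina3g made up 51.2 to 53.7% of the sum in Id2-null and 40.6 to 55.3% in WT libraries, 48.8% in Immature and 17.1% in M2. Serpinb9 made up 6.25 to 10.6% in Id2-null and 11.6 to 17.0% in WT libraries, and 35.8% in M2. Serpine2 took 7.76 to 26.6% in Id2-null libraries, with the top value in replicate 3, against 2.18 to 5.7% in WT libraries. In the order of mean levels per length, Id2-null cultures ran Serpina3g (364 CPM per kilobase), Serpine2 (115, SD 106), Serpinb6b (91.4, SD 30.6), Serpinb9 (58.9), Serpina3f (34.5), Serpinb6a (27.1), Serpinb1a (0.594) and Serpinb9b (0.331). The place of Serpine2 rested on replicate 3, at 43.8, 64.8 and 237 CPM per kilobase in replicates 1 to 3, against 116, 101 and 57.2 for Serpinb6b in the same libraries, and without replicate 3 its mean was 54.3, below 108 for Serpinb6b and 60.5 for Serpinb9. WT cultures ran Serpina3g (461 CPM per kilobase), Serpinb6b (217), Serpinb9 (150.1), Serpina3f (70.2), Serpinb6a (45.3), Serpine2 (36.6), Serpinb9b (13.7) and Serpinb1a (1.77). Serpinb6b and Serpinb9 (SD 72.6 and 26.6), like Serpina3f, Serpinb6a and Serpine2 (SD 21.0, 1.27 and 19.7), were neighbours whose levels did not all stand apart beyond their spread between libraries. Within each WT library Serpinb6b was above Serpinb9, and Serpina3f was above Serpinb6a. Serpine2 exceeded Serpinb6a in WT replicate 3 alone (58.9 against 44.5 CPM per kilobase).

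**Figure D5:**
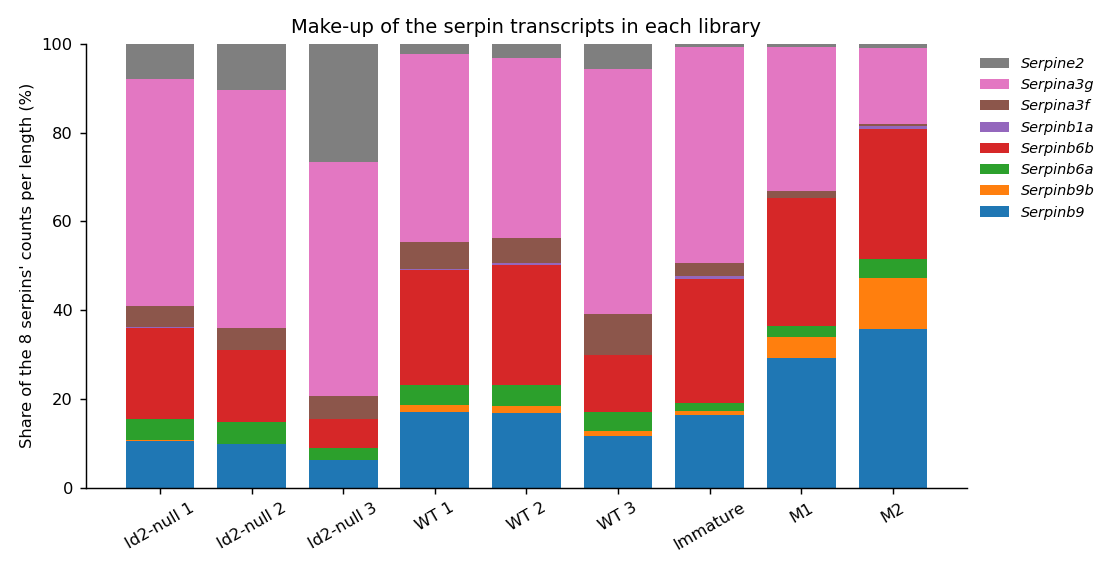
Share of each serpin in the summed counts per length of the 8 genes, as stacked bars that sum to the whole, in each of the 9 libraries. Serpina3g (51.2 to 53.7% in Id2-null libraries) shrinks to 17.1% in M2, where Serpinb9 reaches 35.8% and Serpinb9b 11.5%.

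Likeness between genes was measured as the root mean square difference of centred log2 CPM over the 9 libraries, which fall into 5 groups. A smaller value means closer levels after centring. It is not scaled by how much a gene varied, so genes that vary little can lie near each other without moving together. Among the serpins Serpinb6b and Serpinb9 were nearest to each other (0.41), and Serpina3f was 0.73 from its neighbour Serpina3g, which was 0.70 from Serpinb6a. Serpina3g and Serpinb6a varied little (SD 0.56 and 0.54 in log2 CPM) and went opposite ways from Immature to M2, while Serpina3f and Serpina3g both fell. Over all tested genes the nearest to Serpinb9 were Abcb1a (0.23) and Card19 (0.24). The libraries compared include both genotypes, so a like difference between them is part of this measure. The nearest to Serpinb9b were Entpd1 (0.56), which encodes the ectonucleotidase CD39, and Gzma (0.83). Entpd1 had 2.84, 2.10 and 1.22 CPM in Id2-null libraries, against 109, 73.2 and 47.8 CPM in WT libraries, and 10.1, 108 and 281 CPM in Immature, M1 and M2. Serpinb6a was nearest to Clic4 (0.15) and Pdlim7 (0.22), Serpinb6b to Rab27b (0.24) and Dusp5 (0.25), Serpina3f to Ttc12 (0.35) and Cenpk (0.39), and Serpina3g to Parp8 (0.18) and Tyro3 (0.18). Serpine2 was nearest to Tnfsf4 (0.31), which encodes the costimulatory ligand OX40L, and to Inka2 (0.42). Tnfsf4 had 19.4, 20.1 and 121 CPM in Id2-null libraries, against 12.2, 11 and 29.4 CPM in WT libraries, with replicate 3 the highest in both genotypes as for Serpine2.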

How the data were processed

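The deposited files gave raw counts per Entrez gene with a gene length in bases, the other value used, per the file headers. Subread, featureCounts and limma were named with GRCm38 (mm10), per the submitters' processing notes. Versions, annotation and strand setting are not stated there. Symbols and coordinates came from RefSeq GRCm38.p6 for 25275 identifiers and GENCODE for 18, and 1886 had none.

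Genes passing filterByExpr (minimum count 10) in edgeR 4.0.16 (R 4.3.3) numbered 11022 and were scaled by TMM. Id2-null and WT libraries were compared by quasi-likelihood with genotype alone and Benjamini-Hochberg adjustment over all tested genes, and a gene was called at adjusted p under 0.05. Each SE of an edgeR log2 fold change was derived as its absolute value over the square root of the quasi-likelihood F statistic. DESeq2 1.42.0, limma voom 3.58.1, other scalings, no filter, a replicate block and left-out libraries were alternatives, and robust estimation of the spread was added after seeing the data. Printed CPM use TMM over all 9 libraries, and levels between genes are per kilobase. Same-numbered libraries of both genotypes had correlated deviations from their group means (0.352, 0.241 and 0.417 for replicates 1 to 3). Replicates 1 and 2 also correlated across numbers (0.189 for Id2-null 1 with WT 2, 0.136 for Id2-null 2 with WT 1). Pairs of a replicate 3 with another number ran from -0.397 to -0.261. Replicate 3 was thus matched more clearly than replicates 1 and 2. The labels do not explain the numbers, so the block rests on the same expression values that it adjusts. Sorted libraries have exact Poisson or binomial 95% intervals for counting error only, since PCR reads are not independent molecules. Words of 50 bases were compared over GENCODE M21 transcripts.

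The members and lists were chosen with earlier results of these data known. Named genes were all members, the other tested serpins, up to 6 called proteases and other inhibitors by adjusted p, Gzmb, Gzma, Prf1, Ctsc, Casp1 and Casp8, and the 2 genes most alike each member. Ctss, Gzmf, Gzmk, Timp2, Cst7, F2r, F2rl1, F2rl2, Nqo2, Ripk1, Serpinb1b and the ratios between genes were added after their values were seen.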

Additional observations from a re-analysis of the deposited data

How the results depend on the processing

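No fold change of the 7 tested serpins changed direction under any alternative run. Of the recomputed fold changes, 92 kept their side of the threshold, 9 passed it newly and 4 no longer passed. The 4 were Serpinb6a without Id2-null replicate 1 or WT replicate 1, 2 or 3. Serpinb9 and Serpinb9b were called under every alternative. With the replicate block, which pairs libraries of the same number, 696 genes were called in all, with 5 serpins lower and 1 higher and 1 other protease inhibitor (Timp2), and the block changed no other call of a serpin. DESeq2 called 580 genes, 5 serpins lower and 1 other inhibitor. Without replicate 3 of both genotypes 1014 genes were called, with 5 serpins lower, 1 higher (Serpine2), 1 other serpin gene (Serpinb1b, lower) and 1 other inhibitor. The main count was 370 genes, and leaving out 1 library gave 105 (without WT replicate 1) to 624 (without Id2-null replicate 3), with 2 to 4 serpins lower and 6 to 12 proteases called. At 3-fold in place of 2-fold 2 serpins differed between M2 and Immature, against 5. With library sizes alone as scaling 4 serpins were over 2-fold higher in WT cultures than in sorted libraries, against 2 (3 without any 1 WT library), since Serpinb6a and Serpina3g then stood at 2.32-fold and 2.06-fold. The causes of these changes were not tested. Shares of all genes at 3-fold, with library sizes alone or without 1 WT library are not given here. The counts of serpins over a fold in these settings therefore have no background beside them. Depth limits Serpinb1a and Serpinb9b, at 0 to 9 counts in Id2-null libraries.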
